A study of Mus musculus with 12 samples.

Results

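Transcription regulators known for specifying primordial germ cells were followed through the RNA of mouse male germ cells. They are Prdm1, Prdm14, Tfap2c, Tfap2a and Nr5a2, and they were found by matching the table's Ensembl identifiers to these symbols: 5 of the 55487 genes in the table. The 12 libraries came from male germ cells of Mvh-Venus transgenic mice, in which a fluorescent protein is driven by the germ cell gene Mvh (Ddx4), with testis given as the tissue. Of these, 3 each were made from fetuses at E13.5 and E16.5 (days of embryonic development), from newborns (P0) and from pups at postnatal day 3 (P3). All titles and source names call the samples WT, whereas the genotype tag reads Morc1 (+/-) at E13.5 and P0 and Morc1 (-/-) at E16.5 and P3. Each step from 1 stage to the next therefore also crosses the tag, and the effects of stage and of that tag, if it is right, cannot be told apart there. Only P0 set against E13.5, and P3 set against E16.5, share a tag. The labels do not say how many animals gave a library or whether the 3 libraries of a stage came from separate animals, so p-values measure the spread between these libraries only.

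Germ cells of the mouse are set aside in the early embryo, when signals from neighbouring tissues switch on a small set of transcription regulators in a few epiblast cells. PRDM1 (also called BLIMP1) is a zinc finger repressor that shuts down somatic genes, PRDM14 is a zinc finger regulator that supports pluripotency genes and keeps DNA methylation pathways down, and TFAP2C (AP-2 gamma) acts downstream of PRDM1. TFAP2A is a close relative of TFAP2C best known from neural crest and skin. NR5A2 (LRH-1) is an orphan nuclear receptor that binds the Oct4 gene and is also known from liver, pancreas and ovary. In the fetal testis, male germ cells stop dividing, lose pluripotency gene expression and regain DNA methylation before birth, and they resume division in the days after it.

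All members lie in single annotated loci (GENCODE M21, GRCm38). Prdm1 (ENSMUSG00000038151) lies on the minus strand at chr10:44437177-44528501, Prdm14 (ENSMUSG00000042414) on the minus strand at chr1:13113457-13127163, and Tfap2c (ENSMUSG00000028640) on the plus strand at chr2:172549593-172558622. Tfap2a (ENSMUSG00000021359) lies on the minus strand at chr13:40715302-40738376 and Nr5a2 (ENSMUSG00000026398) on the minus strand at chr1:136842571-136960448. Start regions, from 250 bases before to 50 bases after an annotated start, came from RefSeq (GRCm38.p6) and were matched for 3 of the 5 genes. Those of Prdm1 and Nr5a2 are shown because these genes fell together after E13.5 and moved in opposite directions after birth, as described below. They are written in the direction of transcription, and capitals mark the 1 motif match found.
Prdm1, start at 44458748, chr10:44458699-44458998, minus strand: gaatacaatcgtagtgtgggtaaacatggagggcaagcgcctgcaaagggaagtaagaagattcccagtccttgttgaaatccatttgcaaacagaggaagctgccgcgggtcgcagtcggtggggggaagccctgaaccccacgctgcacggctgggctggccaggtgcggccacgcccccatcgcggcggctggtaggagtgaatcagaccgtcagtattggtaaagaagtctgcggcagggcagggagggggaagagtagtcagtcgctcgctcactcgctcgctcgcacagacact
Nr5a2, start at 136960448, chr1:136960399-136960698, minus strand: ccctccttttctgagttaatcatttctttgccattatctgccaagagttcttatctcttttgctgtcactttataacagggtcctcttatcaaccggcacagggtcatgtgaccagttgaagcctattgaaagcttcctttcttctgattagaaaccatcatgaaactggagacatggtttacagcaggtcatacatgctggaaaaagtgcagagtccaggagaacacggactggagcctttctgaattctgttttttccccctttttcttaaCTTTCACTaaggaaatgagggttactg
Nr5a2, start at 136953630, chr1:136953581-136953880, minus strand: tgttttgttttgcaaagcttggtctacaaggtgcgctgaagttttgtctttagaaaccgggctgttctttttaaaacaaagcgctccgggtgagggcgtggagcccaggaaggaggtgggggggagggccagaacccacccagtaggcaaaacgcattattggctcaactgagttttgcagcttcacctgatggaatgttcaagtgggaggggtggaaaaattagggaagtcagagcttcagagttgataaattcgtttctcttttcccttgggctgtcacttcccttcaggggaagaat

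The Prdm1 start lies 69753 bases inside the gene's annotated 5′ end. Its region held 20 CpG dinucleotides at 59.7% GC, and 73.5% of 32851 promoters of the same length held fewer. The Nr5a2 region at the gene's annotated 5′ end held 2 CpG at 42% GC, with 14.1% of promoters holding fewer, and the one 6818 bases further in held 7 CpG at 49% GC. The median promoter held 7 CpG at 52.7% GC. A set of 4 short motifs was searched on both strands: GCCNNNGGC for TFAP2 proteins, AAGGTCA for NR5A receptors, AGTGAAAG for PRDM1 and GGTCTCTAA for PRDM14. They occurred in 16.6%, 4.72%, 1.32% and 0.256% of promoters. In the start regions of Prdm1, Nr5a2 and Tfap2a the only match was the PRDM1 motif, read as CTTTCACT along the gene, 24 bases after the first Nr5a2 start. It describes letters in this window and no binding was measured.

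Each library held 40946616 to 51533747 reads assigned to genes, and the deposited values are normalized counts, reads divided by a size factor. Over the 3 libraries of a stage this factor averaged 0.939 ± 0.0175 (SD) for E13.5, 1.13 ± 0.117 for E16.5, 1.94 ± 0.118 for P0 and 1.01 ± 0.0225 for P3. Genes that define germ cells (6) summed to high levels in all libraries. They gave 296080 to 314480 normalized counts at E13.5 and 216100 to 239780 at E16.5. At P0 they gave 148800 to 160360, the lowest of the stages, and at P3 239200 to 252560. Of these genes Dppa3 did not stay high and fell in every step, as given below. Markers of other cells changed with stage as well. The summed level of 5 Leydig cell genes ranged from 571 to 723 at E13.5, from 608 to 7681 at E16.5, from 1078 to 6106 at P0 and from 179 to 267 at P3, with Insl3 at or under 3 reads in every E13.5 and P3 library. The sum of 6 Sertoli cell genes was 893 to 1480, 1237 to 2394, 2702 to 4956 and 1051 to 1668 at the 4 stages, with Cldn11 at or under 3 reads at E13.5 and P3. Peritubular cells were read from 4 genes, which summed to 81.3 to 101 at E13.5 and 2216 to 2344 at P0, and 4 mast cell genes (Cpa3, Cma1, Mcpt4 and Tpsb2) were at 0 in every E13.5 library and summed to 1178 to 2698 at P0. At P3, these mast cell genes summed to 304 in 1 library and to 3.88 and 2.02 in the others. The endothelial marker sum dropped with the members after E13.5, through Pecam1 only: 4 genes summed to 4429 to 5192 at E13.5, 671 to 849 at E16.5, 1000 to 1157 at P0 and 577 to 741 at P3. Of them Pecam1, which is also known from germ cells, averaged 4618 at E13.5 and 282 at E16.5, whereas Cdh5, Kdr and Tek together were lower at E13.5, with means of 9.92, 2.84 and 98.0, than at E16.5, with 29.8, 38.5 and 387. Leukocyte genes (6) went from 97.8 to 114 at E13.5 up to 1279 to 1550 at E16.5, and erythroid genes (4) from 64.1 to 414 up to 1749 to 2401. Stratified epithelial genes (Krt5, Krt14, Krt15 and Trp63) summed to 79.4 to 88.7 at E13.5, 804 to 1175 at E16.5, 754 to 923 at P0 and 151 to 175 at P3, most of it from Trp63. Krt14 was at or under 3 reads in every E13.5 library, as were Krt5 and Krt14 in every P3 library. This sum therefore mostly follows Trp63 and cannot be read as a level of epithelial cells. In bulk RNA, fewer cells of a type and less RNA per cell cannot be told apart, and the part of these other cells in the results below was not tested. Replicate pairs differed by a chi-square of 5.44 to 19.1 per gene, so no pair agreed within sampling noise. The titles number replicates 1 to 3 and the table's columns are numbered 1, 3 and 4. The latter numbers name the libraries here.

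The stages differ in scale, and this decides what can be said of small changes around birth. Setting all library totals equal in place of the deposited size factors moved the all-gene median of the log2 fold changes by 0.53 for E16.5 against E13.5, by 0.69 for P0 against E16.5 and by -0.91 for P3 against P0. With the deposited scale, 6173 genes were higher and 7485 lower at P0 than at E16.5, and with equal totals 12743 were higher and 3443 lower. The same pair of scales gave 8966 higher and 8156 lower, against 4577 and 13565, for P3 against P0, and 10180 and 7752, against 12911 and 5506, for E16.5 against E13.5. For P0 against E13.5 they gave 10225 higher and 9055 lower, against 15372 and 4550, and for P3 against E13.5 8772 and 6983, against 10871 and 4898. Fold changes below use the deposited scale and come from limma on log2(normalized count + 1) over all 12 libraries, with Benjamini-Hochberg adjustment over the 22384 genes tested and a threshold of 0.05. Values relative to the median of all genes are added where the scale matters.

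All 5 members passed the filter on low values, and at E13.5 3 of them stood between 3455 and 4208 normalized counts. Between E13.5 and E16.5, 4 members fell, by 5.46-fold to 14.2-fold, and Tfap2a, at the limit of detection, rose. In the same step the endothelial marker sum was lower through Pecam1, while Cdh5, Kdr and Tek were higher. The epithelial sum, most of it from Trp63, and the leukocyte and erythroid sums were higher, as given above. All 5 passed the threshold in this step, where 80.1% of all genes tested did (45.5% higher and 34.6% lower), and in all 5 the libraries of the 2 stages did not overlap, as in 80.2% of all genes. Tfap2a passed the filter only with the P0 and P3 libraries, where it averaged higher, and failed it with these 2 stages alone. Its call and lack of overlap here are therefore not independent of the filter. The members' median log2 fold change was -2.63, beside 0.31 over all genes. Around birth, from E16.5 to P0, the threshold was passed by 1 member, Prdm14, which was lower, where 61.0% of all genes passed it and 33.4% were lower. Its libraries were also the only ones of a member not to overlap, beside 69.5% of all genes. From P0 to P3 the threshold was passed by 3 members, 2 lower and 1 higher, where 76.5% of all genes passed it, 36.4% lower and 40.1% higher. The same 3 members had libraries that did not overlap, as did 81.0% of all genes. Over the 4 stages together all 5 members changed in limma's F-test, as did 95.2% of all genes.

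**Figure D1:**
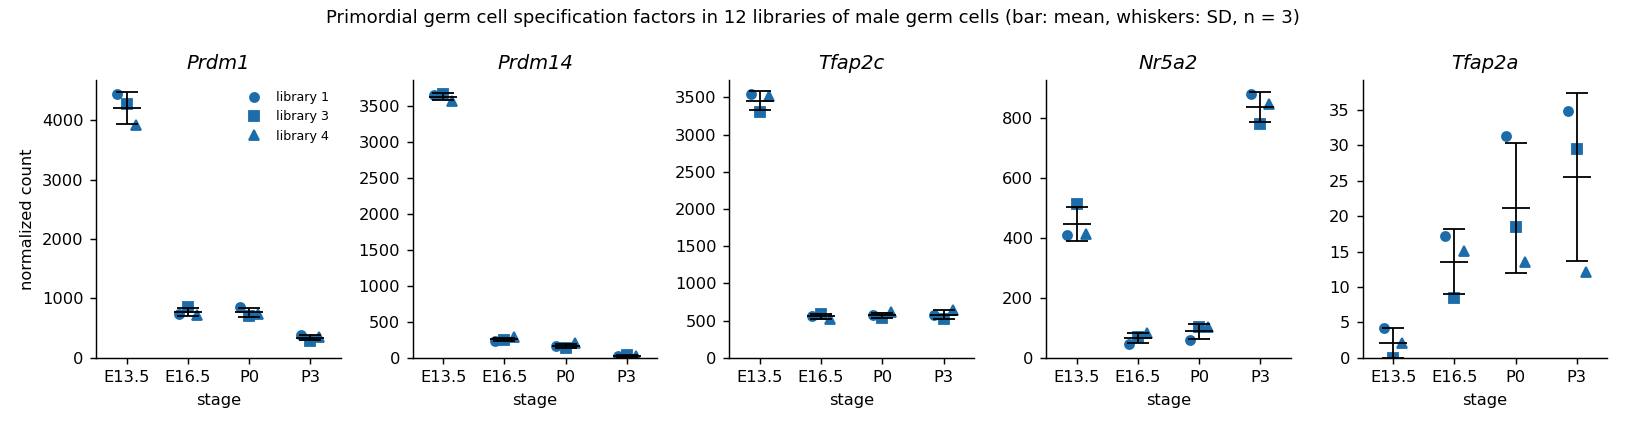
Normalized counts of the 5 genes (linear vertical axes starting at 0, a separate scale for each gene) in the 12 libraries by stage, with points for libraries, bars for means and whiskers for SD (n = 3). Prdm1, Prdm14 and Tfap2c are highest at E13.5, Nr5a2 is highest at P3, and Tfap2a stays below 40 in every library.

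Prdm1 fell in a pair of steps separated by a plateau. Its normalized counts in libraries 1, 3 and 4 were 4438, 4271 and 3916 at E13.5, 733, 855 and 727 at E16.5, 850, 710 and 738 at P0, then 378, 285 and 358 in the P3 libraries. Every E13.5 library lay far above all others, the E16.5 and P0 libraries overlapped, and the P3 libraries lay below both. The mean dropped from 4208 ± 266 at E13.5 to 772 ± 71.9 at E16.5, and limma put the log2 fold change at -2.45 (SE 0.115) with an adjusted p of 5.08e-12. Between E16.5 and P0 the log2 fold change was -0.01 with a 95% confidence interval of -0.25 to 0.23 (adjusted p = 0.939). The step from P0 to P3 lowered Prdm1 2.26-fold to 340 ± 49.1, a log2 fold change of -1.17 (95% interval -1.42 to -0.93, adjusted p = 8.74e-08). Equal library totals made this last drop 4.04-fold, whereas relative to the median of all genes it was -1.22 with the deposited scale and -1.16 with equal totals. At P3 it was 12.4-fold lower than at E13.5 (adjusted p = 9.93e-14).

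Prdm14 fell furthest. Libraries 1, 3 and 4 held 3644, 3664 and 3565 normalized counts at E13.5, 229, 254 and 282 at E16.5, 160, 134 and 199 at P0, and 19.4, 42.2 and 18.2 at P3. No 2 stages overlapped. The drop from E13.5 to E16.5 was 14.2-fold (log2 fold change -3.83, SE 0.243, adjusted p = 2.44e-10), and that from P0 to P3 was 6.35-fold (log2 fold change -2.67, 95% interval -3.18 to -2.15, adjusted p = 3.45e-08). Equal totals gave 11.3-fold for the latter, and relative to the median of all genes it was -2.71 and -2.64 on the log2 scale. Over the whole series Prdm14 went from 3624 ± 52.3 to 26.6 ± 13.54, 141-fold lower (log2 fold change -7.14, adjusted p = 2.13e-13). The highest of the P3 libraries was library 3, the same one that held most mast cell gene counts, and without it the log2 fold change from P0 was -3.04.

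Around birth the change in Prdm14 was small: from 255 ± 26.4 to 164 ± 33.1, 1.56-fold lower (log2 fold change -0.64, 95% interval -1.16 to -0.13, adjusted p = 0.0301). This call was lost with TMM factors (-0.53, adjusted p = 0.0752), with median-of-ratios factors (-0.39, adjusted p = 0.170) and with equal library totals (0.015, adjusted p = 0.960). It was also lost without E16.5 library 3 or 4 or P0 library 1 or 3, with adjusted p from 0.0660 to 0.126. Relative to the median of all genes the difference was -0.63 with the deposited scale and -0.67 with equal totals.

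RNA of Tfap2c, which encodes a DNA-binding protein, had a different course from that of the PRDM genes. Tfap2c held 3541, 3307 and 3517 normalized counts at E13.5, then 564, 585 and 519 at E16.5, 571, 540 and 609 at P0, then 581, 522 and 636 in the P3 libraries. The E13.5 libraries stood apart, and those of the 3 later stages overlapped throughout. The first step was a 6.21-fold drop from 3455 ± 129 to 556 ± 33.5 (log2 fold change -2.63, SE 0.0951, adjusted p = 2.11e-13). After it the log2 fold change was 0.04 from E16.5 to P0 (95% interval -0.16 to 0.25, adjusted p = 0.704) and 0.01 from P0 to P3 (95% interval -0.19 to 0.21, adjusted p = 0.906). These intervals leave room for changes of about 0.2 in either direction on the deposited scale. With equal library totals Tfap2c passed the threshold upward for P0 against E16.5 (0.71, adjusted p = 8.72e-06) and downward for P3 against P0 (-0.83, adjusted p = 9.50e-07), and median-of-ratios factors also gave both calls (0.30, adjusted p = 0.0119, and -0.43, adjusted p = 0.000721). Relative to the median of all genes the P3 against P0 value was -0.03 with the deposited scale and 0.03 with equal totals. P3 remained 5.97-fold below E13.5 (adjusted p = 5.72e-13).

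Tfap2a was barely detected. Libraries 1, 3 and 4 held 4, 0 and 2 reads of it at E13.5 and 18, 9 and 19 at E16.5. The same libraries held 60, 34 and 28 reads for P0 and 36, 30 and 12 for P3. The E13.5 libraries lay below all others, and the 3 later stages overlapped. Normalized counts averaged 2.11 ± 2.11, 13.53 ± 4.59, 21.1 ± 9.19 and 25.5 ± 11.9. E16.5 was higher than E13.5 by a log2 fold change of 2.47 (95% interval 1.21 to 3.72, limma adjusted p = 0.00112), a value that depends on the pseudocount: it was 3.73 with a pseudocount of 0.1 and 0.95 with 10. It fell to 1.80 without E13.5 library 3, which held no read of the gene, and stayed past the threshold (adjusted p = 0.00675). Later steps were not called, with 0.58 for P0 against E16.5 (95% interval -0.67 to 1.83) and 0.22 for P3 against P0 (95% interval -1.04 to 1.47). On the opposite strand the gene overlaps Gm47061, which had 0 to 2 reads at E13.5, 9 to 24 at E16.5, 41 to 55 at P0 and 55 to 69 at P3. Tfap2a also overlaps Gm26688 and Gm47067 there, with at most 13 and 8 reads in any library. Whether the counting used strand is not given in the sources used here, so reads of Tfap2a and these genes cannot be told apart. Of the 50-base words of Tfap2a's exons, 10.2% also occur in other genes, while the other 4 members shared at most 0.0505%.

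Nr5a2 showed a U-shaped course. Libraries 1, 3 and 4 held 411, 511 and 413 normalized counts at E13.5, 46.8, 67.9 and 81.5 at E16.5, 58.0, 102 and 104 at P0, then 878, 780 and 846 in those of P3. The E16.5 and P0 libraries overlapped, the E13.5 libraries lay above them, and the P3 libraries lay above all. The mean fell from 445 ± 57.5 to 65.4 ± 17.5 between E13.5 and E16.5, a 6.85-fold drop (log2 fold change -2.78, SE 0.229, adjusted p = 7.69e-09). From 88.1 ± 26.1 at P0 it rose 9.68-fold to 835 ± 50.1 at P3 (log2 fold change 3.28, 95% interval 2.79 to 3.76, adjusted p = 1.19e-09). Equal library totals gave 5.43-fold, and relative to the median of all genes the rise was 3.23 with the deposited scale and 3.299 with equal totals. P3 lay 1.88-fold above E13.5 (log2 fold change 0.91, 95% interval 0.43 to 1.40, adjusted p = 0.00198).

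From E16.5 to P0 Nr5a2 did not pass the test (log2 fold change 0.41, 95% interval -0.07 to 0.90, adjusted p = 0.130), and this depended on the scale and on P0 library 1. With median-of-ratios factors the value was 0.67 (adjusted p = 0.0191) and with equal totals 1.07 (adjusted p = 0.00136), both past the threshold. Relative to the median of all genes it was 0.42 with the deposited scale and 0.39 with equal totals. Without P0 library 1 it was 0.69 (adjusted p = 0.0111). Without E16.5 library 4, P0 library 1 and P3 library 3 together it was 0.86 (adjusted p = 0.00546), an alternative chosen after seeing the data. Those 3 libraries were left out because they held the most Leydig cell marker counts at E16.5 (7681, beside 608 and 1210) and P0 (6106, beside 3102 and 1078) and the most mast cell gene counts at P3. At P0 the library with the most Leydig cell counts held the fewest Nr5a2 counts, and at E16.5 the library with the most held the most. The large calls stood without them: all 5 members were called for E16.5 against E13.5 and 3 for P3 against P0, as with every single library left out.

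**Figure D2:**
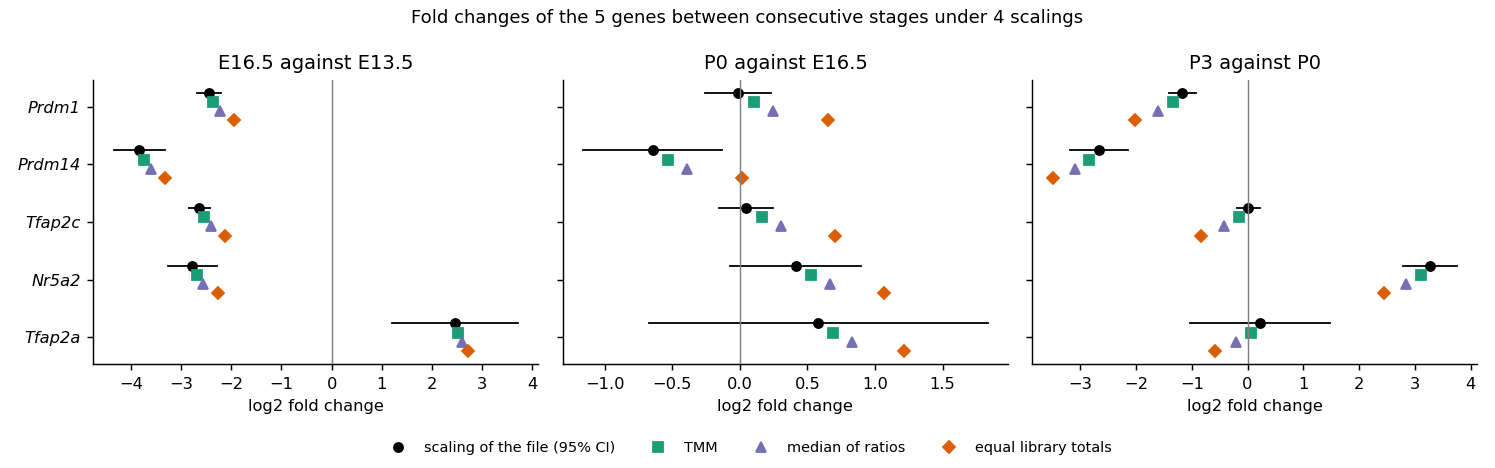
Log2 fold changes of the 5 genes (horizontal axes, a separate range in each panel) for the 3 consecutive steps, with black circles and 95% confidence intervals for the deposited scale, squares for TMM, triangles for median of ratios and diamonds for equal library totals. The markers of every gene shift together within a panel, and in the P0 against E16.5 panel they cross zero for Prdm1 and Prdm14.

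The 2 comparisons within 1 genotype tag gave the same directions for the large changes. P0 against E13.5 gave log2 fold changes of -2.46 for Prdm1, -4.47 for Prdm14, -2.59 for Tfap2c, -2.36 for Nr5a2 and 3.05 for Tfap2a, all past the threshold (limma adjusted p from 1.39e-13 to 0.000141), where 86.1% of all genes passed it (45.7% higher and 40.5% lower). The libraries did not overlap in any of the 5, as in 88.1% of all genes. With equal totals the first 4 became -1.29, -3.31, -1.42 and -1.20, all still called. P3 against E16.5 gave -1.18 for Prdm1, -3.31 for Prdm14 and 3.69 for Nr5a2 (adjusted p from 3.71e-10 to 9.80e-08), with 69.5% of all genes called, 34.2% higher and 35.2% lower. These 3 members had libraries that did not overlap, as did 71.6% of all genes. In that comparison Tfap2c (0.06, 95% interval -0.14 to 0.26) and Tfap2a (0.80, 95% interval -0.45 to 2.05) were not called. P3 against E13.5 called all 5 members, 3 lower and 2 higher, where 70.4% of all genes were called (39.2% higher and 31.2% lower). Again no member's libraries overlapped, as in 71.3% of all genes. No E13.5 library reached the filter's level for Tfap2a, so it entered each comparison with E13.5 only through stages where it was higher. These comparisons share libraries with the steps above.

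Per kilobase of exon, which allows a rough comparison of levels between genes, the order of the 5 genes changed with stage. The length joins the exons of all annotated transcripts, 5579 bases over 4 transcripts for Prdm1 and 2564 bases over 1 for Prdm14. Which transcripts were expressed was not tested, so the order between genes depends on this length. By normalized counts alone Prdm1 stood above Prdm14 at E13.5. At E13.5 Prdm14 led with 1413 ± 20.4 normalized counts per kilobase, followed by Tfap2c with 939 ± 35.0, Prdm1 with 754 ± 47.7, Nr5a2 with 75.5 ± 9.74 and Tfap2a with 0.430, and no neighbours in this order overlapped. By E16.5 Tfap2c (151 ± 9.12) and Prdm1 (138 ± 12.9) overlapped at the top, above Prdm14 (99.4 ± 10.3) and Nr5a2 (11.1 ± 2.97). P0 kept that order, with 156 ± 9.39 for Tfap2c and 137 ± 13.3 for Prdm1, which again overlapped, then 64.1 ± 12.9 for Prdm14 and 14.9 ± 4.43 for Nr5a2. At P3 Tfap2c (158 ± 15.4) and Nr5a2 (141 ± 8.49) overlapped at the top, Prdm1 followed with 61.0 ± 8.80, and Prdm14 (10.4 ± 5.28) overlapped Tfap2a (5.20 ± 2.42). Within each P3 library Tfap2c lay above Nr5a2 and Prdm14 above Tfap2a.

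Ratios between members within a library cancel the scaling factor, apart from the 1 added to each normalized count before the logarithm. This addition weighs most at low counts, as for Prdm14 at P3. The ratios are given as descriptions. The log2 ratio of Prdm14 to Prdm1 had means of -0.21 ± 0.075, -1.60 ± 0.20, -2.23 ± 0.30 and -3.72 ± 0.86 (SD, n = 3) in stage order, so Prdm14 was lower beside Prdm1 at each later stage. The ratio of Tfap2c to Prdm1 was -0.28 ± 0.11, -0.47 ± 0.086 and -0.41 ± 0.15 at the first 3 stages and 0.77 ± 0.13 at P3. Tfap2c was thus below Prdm1 in normalized counts in all 9 libraries before P3 and above it in the 3 at P3. The ratio of Nr5a2 to Prdm1 was -3.24 ± 0.19, -3.57 ± 0.40 and -3.15 ± 0.61 before P3 and 1.30 ± 0.13 at P3. Across the first 3 stages, while both genes dropped several-fold, the libraries of these stages overlapped in this ratio.

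**Figure D3:**
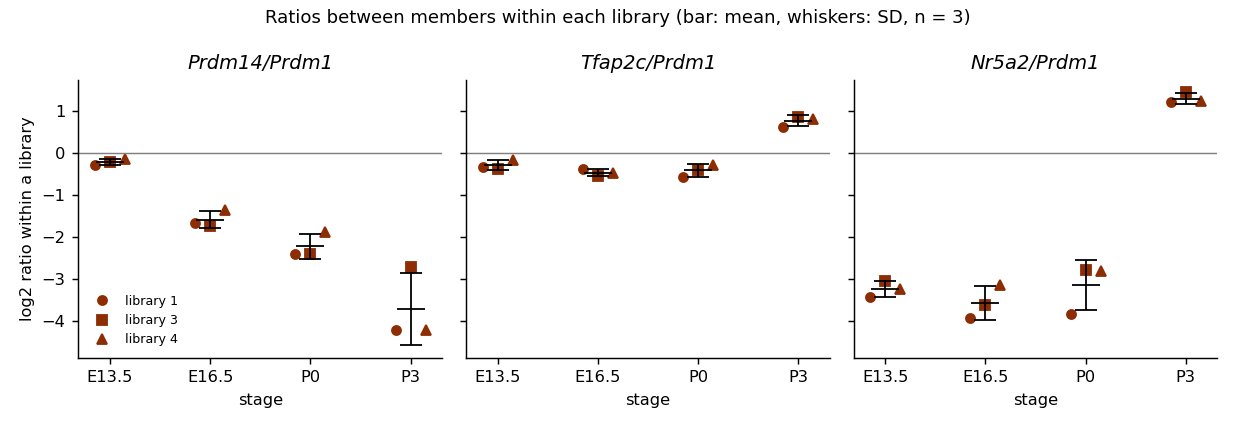
Log2 ratios of Prdm14, Tfap2c and Nr5a2 to Prdm1 within each library (vertical axis, shared by the panels, 0 marking equal normalized counts) by stage, with points for libraries, bars for means and whiskers for SD (n = 3). The Prdm14 ratio falls from -0.21 to -3.72, while those of Tfap2c and Nr5a2 lie below 0 before P3 and above 0 at P3.

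Over the 12 libraries the levels of Prdm1 and Prdm14 had a Pearson correlation of 0.97 on the log2 scale, Prdm1 and Tfap2c of 0.92, and Prdm14 and Tfap2c of 0.85. Nr5a2 had 0.03 with Prdm1, -0.10 with Prdm14 and 0.40 with Tfap2c. These values describe 4 stages of 3 libraries each, which share their stage and scaling, and they carry no test. Among 13647 genes with a stage mean of at least 100, those closest to Prdm1 were Pdlim3, Olig1 and Tdrp, each with r = 0.994. Pdlim3, which encodes a PDZ and LIM domain protein of the cytoskeleton, averaged 7469, 747, 686 and 166 normalized counts at the 4 stages. Closest to Prdm14 were Rnf125 (0.994), Hesx1 (0.993) and Zscan5b (0.990). Hesx1, a homeobox repressor, averaged 4971, 447, 250 and 34.0. Closest to Tfap2c were Plk5 (0.997), Srm (0.995) and Tbc1d17 (0.994). Srm, the spermidine synthase gene, averaged 21066, 4876, 5330 and 4975. Among those closest to Nr5a2 were Fnbp1l (0.988) and Azin2 (0.988), of which Azin2, an antizyme inhibitor, averaged 575, 258, 269 and 741. Such courses were common: 154 genes had r of at least 0.95 with Prdm1, 115 with Prdm14, 244 with Tfap2c and 284 with Nr5a2. For Tfap2a the closest were Nrg2 (0.957), Krt28 (0.937) and Grik4 (0.932), and 1 gene reached 0.95.

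The wider germ cell programme was followed with 20 genes: BMP and WNT signals, their receptors and SMAD mediators, and early germ cell genes. From E13.5 to E16.5, 15 fell, 4 rose and 1 was not called, with a list median of -0.93 beside 0.31 over all genes. Over all genes, 34.6% were lower and 45.5% higher in this step. The 4 that rose, named after their values were seen, were Bmp2, Bmp8b, Tbxt and Dnd1. With equal library totals 11 fell and 5 rose in this step. In the step to P0, 11 fell and 6 rose (list median -0.68), beside 33.4% lower and 27.6% higher over all genes. With equal library totals 8 fell and 8 rose (list median -0.02). Without the 3 libraries named above 11 fell and 4 rose. From P0 to P3, 12 rose and 4 fell, beside 40.1% higher and 36.4% lower over all genes. With equal library totals 9 rose and 10 fell, so the balance of the list in both later steps depends on the scale. Dppa3 (Stella), which protects maternal methylation in the zygote, fell in every step, from 79747 ± 2546 to 14676 ± 719, 182 ± 26.9 and 17.8 ± 5.22 normalized counts. Dnd1, an RNA-binding protein that germ cells need to survive, instead went from 34372 ± 2396 to 69582 ± 5403 at E16.5 and then to 3892 ± 389 at P0 and 9366 ± 446 at P3. Prmt5, an arginine methyltransferase and a partner of PRDM1, averaged 18330 ± 360, 12707 ± 1194, 4821 ± 434 and 6529 ± 114. Its rise from P0 to P3 (log2 fold change 0.44) turned to a lower value with equal totals. Sall4, a zinc finger protein of stem and germ cells, averaged 12639 ± 94.5, 8835 ± 995, 4554 ± 75.8 and 11261 ± 1663. Of these, Dppa3 shares 16.51% of its 50-base exon words with other genes, which makes its level uncertain.

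Pluripotency genes fell with Prdm14 at the first step. Of 14 tested, 11 fell and 3 rose from E13.5 to E16.5, with a list median of -2.85 beside 0.31 over all genes. Over all genes, 34.6% were lower and 45.5% higher. The 3 that rose, named after their values were seen, were Klf4, Tbx3 and Tfcp2l1. In the step to P0, 8 fell and 4 rose, beside 33.4% lower and 27.6% higher over all genes. From P0 to P3, 7 fell and 5 rose with the deposited scale, beside 36.4% lower and 40.1% higher over all genes. With equal totals 10 fell and 1 rose from P0 to P3. Without the 3 libraries named above, 5 fell and 5 rose in that last step. Utf1, a chromatin protein of pluripotent cells, fell in every step, from 42814 ± 3355 to 20106 ± 1111, 3574 ± 110 and 1294 ± 98.6. Tcl1, a cofactor of the kinase AKT, had a course shaped like that of Nr5a2: 23849 ± 958, 1615 ± 169, 854 ± 55.9 and 13318 ± 670 in stage order, with log2 fold changes of -3.89 in the first step and 3.96 in the last. Pou5f1 (Oct4), the gene that NR5A2 is known to bind, averaged 13255 ± 102, 7080 ± 253, 1053 ± 45.7 and 1787 ± 56.7. Its rise from P0 to P3 (log2 fold change 0.76), unlike that of Nr5a2, changed sign with another scale. Dppa5a, a KH domain protein of pluripotent cells, went from 42996 ± 1014 to 2169 ± 382 and 756 ± 72.7, then 1256 ± 199. Dppa5a shares 38.6% of its exon words with other genes and Pou5f1 10.1%.

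**Figure D4:**
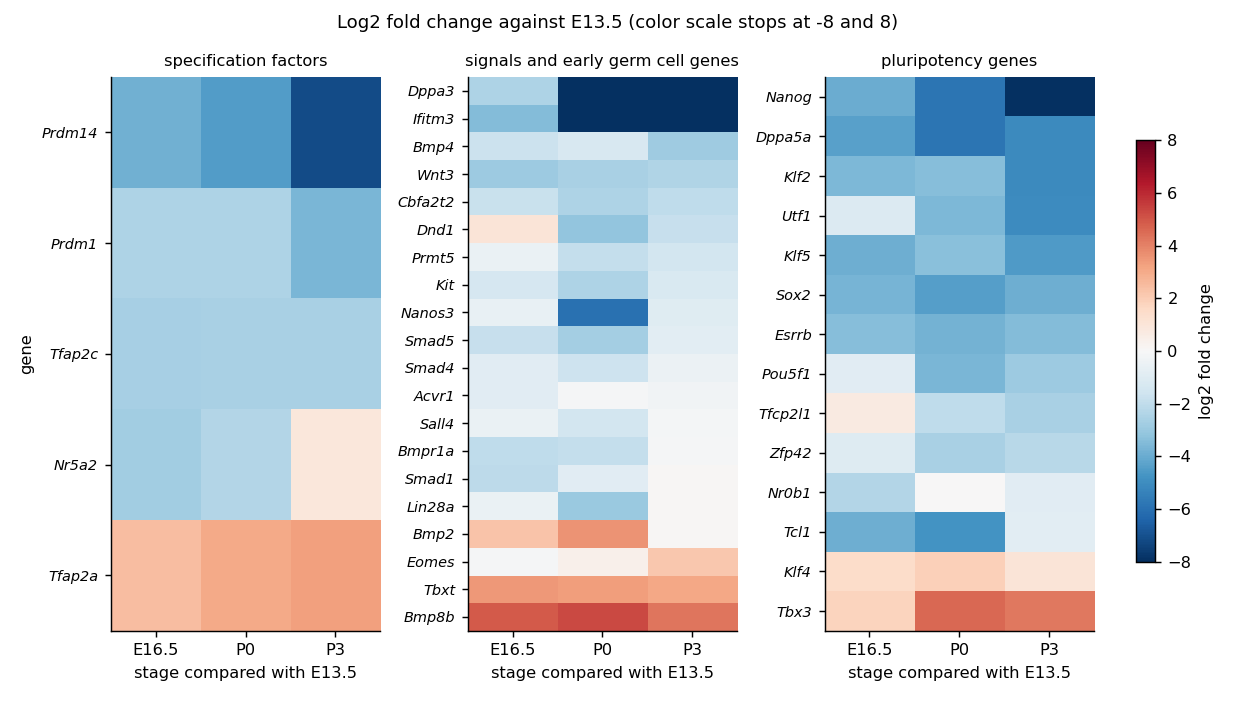
Heat map of log2 fold changes against E13.5 for the 5 specification factors, the 20 signalling and early germ cell genes and the 14 pluripotency genes (rows) at E16.5, P0 and P3 (columns), blue for lower and red for higher, with the colours capped at -8 and 8. Prdm14 reaches -7.14 at P3, Nr5a2 turns from -2.36 at P0 to 0.91 at P3, and all columns share the E13.5 libraries.

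DNA methylation and signalling genes that PRDM14 is known to hold down did not move as a block. Of 7 tested, 3 rose and 4 fell from E13.5 to E16.5, beside 45.5% higher and 34.6% lower over all genes. Dnmt3l, the cofactor of the methyltransferases DNMT3A and DNMT3B, went from 17.8 ± 5.31 to 20342 ± 1795, and Dnmt3a from 5254 ± 150 to 52805 ± 4712, in the step in which Prdm14 fell 14.2-fold. Both fell in the following steps, to 6619 ± 479 and 527 ± 32.9 for Dnmt3l and to 19793 ± 351 and 13630 ± 789 for Dnmt3a, while Prdm14 fell further. Uhrf1, which recruits maintenance methylation to replicated DNA, fell from 7681 ± 468 to 1963 ± 97.8 in the first step and rose from 1376 ± 207 at P0 to 31559 ± 2158 at P3 (log2 fold change 4.53). Fgfr2, a fibroblast growth factor receptor, fell with Prdm14 from 3452 ± 265 to 400 ± 82.0 in the first step and stood at 271 ± 26.6 and 260 ± 59.6 after it. From E16.5 to P0, 5 of the 7 fell and 1 rose with the deposited scale, beside 33.4% lower and 27.6% higher over all genes. With equal totals 2 fell and 1 rose. Uhrf1 shares 15.4% of its exon words with other genes.

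A list of 8 somatic genes that PRDM1 is known to repress was also followed. From E13.5 to E16.5, when Prdm1 fell, 6 rose and 2 fell, beside 45.5% higher and 34.6% lower over all genes, with a list median of 2.06. With the filter applied to these 2 stages alone, 6 genes were tested, 4 rose and 2 fell, with a list median of 1.27. The genes that failed there entered the main test only with libraries of later stages. Without the 3 libraries named above 5 rose and 2 fell. The 2 that fell, Evx1 and Snai1, were named after their values were seen. The levels were low, and the Leydig, leukocyte, erythroid and epithelial marker sums, the last mostly Trp63, reached higher values at E16.5 too. Their part in this count was not tested. Tbxt (Brachyury), a mesoderm T-box factor that is also in the list of germ cell signals, went from 58.9 ± 10.8 to 651 ± 134.5 and stood at 603 ± 71.5 and 511 ± 23.6 later. Mixl1, a homeobox gene of the primitive streak, went from 87.6 ± 34.8 to 300.1 ± 19.8 and then 538 ± 81.1 and 308 ± 2.95. Evx1, another homeobox gene, fell from 256 ± 24.6 to 15.3 ± 10.7 and averaged 4.54 ± 4.87 at P3. Fgf8, a signal of the gastrulating embryo, averaged 89.6 ± 18.3, 144 ± 13.1, 82.4 ± 5.91 and 25.8 ± 6.66. From P0 to P3, when Prdm1 fell again, 5 fell and 1 rose, beside 36.4% lower and 40.1% higher over all genes. Without the 3 libraries named above 3 fell and 1 rose.

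Of 13 other PRDM genes listed, 11 were tested. From E13.5 to E16.5, 6 rose, 4 fell and 1 was not called, shares close to those over all genes (45.5% higher and 34.6% lower). Prdm16, a regulator known from brown fat and neural stem cells, rose from 197 ± 15.6 to 3185 ± 79.7 (log2 fold change 4.01). Prdm4 averaged 3885 ± 261, 2024 ± 192, 1850 ± 163 and 4325 ± 302, and Prdm2 stayed between 1236 ± 76.7 and 1735 ± 73.4. In the step to P0, 3 rose and 1 fell, beside 27.6% higher and 33.4% lower over all genes, and with equal totals 9 rose and 1 fell. From P0 to P3 the counts were 5 and 3 with the deposited scale, beside 40.1% higher and 36.4% lower over all genes, and 1 and 9 with equal totals.

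Of the closest relatives of the TFAP2 and NR5A members, 3 of 4 were tested. Nr5a1 (SF-1), the receptor of steroid-producing cells and Sertoli cells, averaged 203 ± 40.8, 336 ± 152, 801 ± 380 and 284 ± 59.2, so it was high at P0 where Nr5a2 was low. Its rise from E16.5 to P0 (log2 fold change 1.22, limma adjusted p = 0.00433) and its fall from P0 to P3 (-1.39, adjusted p = 0.00116) stand beside the Leydig and Sertoli marker sums given above, of which the Sertoli sum was highest at P0. Tfap2e averaged 6.72 ± 3.35, 76.6 ± 18.9, 111 ± 22.0 and 28.7 ± 6.47. Tfap2b was at 0 in every E13.5 library and averaged 5.54 ± 5.67, 60.4 ± 7.86 and 0.646 ± 1.12 at the later stages. All 3 tested relatives fell from P0 to P3, where 36.4% of all genes were lower. Tfap2b passed the filter through P0, where it was highest, so the filter favoured its fall. Without the 3 libraries named above 2 relatives were tested, and 2 fell.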

How the data were processed

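RNA from mouse male germ cells was sequenced in 12 libraries, prepared with SMART-seq v4 and TruSeq kits per the labels' protocols. The submitters' processing notes name bcl2fastq 2.20, cutadapt 1.18, HISAT2 2.1.0, featureCounts 1.5.2, DESeq2 1.26.0 and the mouse build mm10 (GRCm38). The authors deposited 1 table of signal values, read counts per gene divided by a size factor per library. Dividing by the smallest step gave whole numbers for 100% of values (tolerance 0.001), so reads were recovered. They served edgeR 4.0.16 (quasi-likelihood test) and DESeq2 1.42.0 as alternatives.

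The test was limma 3.58.1 in R 4.3.3 (lmFit, eBayes with trend) on log2(value + 1). Genes entered with 10 or more normalized counts in 3 or more libraries, and all 4 stages shared 1 estimate of the spread. Benjamini-Hochberg adjusted p below 0.05 was a call. Symbols matched 55141 of 55487 identifiers (99.4%). Positions, exon lengths and 50-base words came from GENCODE M21. Scripts were tested on simulated data. The members and lists were chosen with earlier results of these data known. Named genes are the members, up to 4 genes per list with the highest stage mean, and the 3 genes most correlated with each member, without predicted-gene or clone names; 2 genes that met this rule are not reported here. Columns were assigned to stages from their names. Alternatives were other scalings (TMM, median of ratios, equal totals), pseudocounts of 0.1 and 10, no filter, fits of 2 stages only, edgeR, DESeq2, leaving out each library and a block on the column numbers. Amplified reads carry no molecular identifiers, so they are not independent molecules.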

Additional observations from a re-analysis of the deposited data

How the results depend on the processing

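Of 799 member results recomputed under the alternatives, 764 kept their direction and their side of the threshold and 21 changed sign. In all 9 lost and 9 gained a call, 1 and 3 of them with a change of sign. All concern P0 against E16.5, P3 against P0 or P3 against E16.5, where the deposited differences were near 0 or, for Prdm14, near the threshold. For P0 against E16.5, Prdm1 was 0.11 with TMM factors, 0.25 with median-of-ratios factors and 0.65 with equal totals (adjusted p = 8.00e-05), and between -0.088 and 0.064 with single libraries left out. Prdm14 was -0.53 with TMM factors, -0.39 with median-of-ratios factors, 0.015 with equal totals, -0.65 with a pseudocount of 0.1 (adjusted p = 0.0554) and -0.64 with no filter (adjusted p = 0.0509), and between -0.79 and -0.51 with single libraries left out. Tfap2c was 0.30 with median-of-ratios factors, 0.71 with equal totals, -0.0018 without the 3 libraries left out above for their Leydig or mast cell counts, and between -0.0038 and 0.087 with single libraries left out. Nr5a2 was 0.67 with median-of-ratios factors, 1.07 with equal totals, 0.86 without those 3 libraries, and between 0.19 and 0.69 with single libraries left out. For P3 against P0, Tfap2c was -0.16, -0.43 and -0.83 with TMM, median-of-ratios and equal-total factors, and between -0.055 and 0.086 with single libraries left out. Tfap2a was -0.20 and -0.59 with the last 2 of these, and between -0.063 and 0.66 with single libraries left out. For P3 against E16.5, Tfap2c was -0.12 with both median-of-ratios factors and equal totals, and between -0.011 and 0.13 with single libraries left out. The number of members called for P0 against E16.5, 1 of 5, was 0 with TMM factors, a pseudocount of 0.1 or no filter, 2 with median-of-ratios factors or without the 3 libraries, 3 with equal totals and 0 to 1 with single libraries left out. The scalings act by shifting all genes of a stage together. The cause of the other changes was not tested.

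Numbers of genes called stayed within 1.5 times of the main count in 160 of 160 recomputations, as did 402 of 432 counts over the lists. Tfap2a could not be fitted with E13.5 and E16.5 alone because it failed the filter there. Its few reads limit it to a comparison with E13.5. The replicate numbers 1 to 3 of the titles do not match the column numbers 1, 3 and 4, so the libraries could not be paired by the titles. A replicate block on the column numbers, added after seeing the data, changed no call of a member. Prdm14 for P0 against E16.5 kept -0.64 (adjusted p = 0.0389), 1 member was called there, and the number of genes called went from 13658 to 13529. Deviations from the stage means correlated between -0.0356 and 0.0423 in 18 pairs with the same number. In the 36 pairs with another number they correlated between -0.0716 and 0.0534, and 2 of 12 libraries correlated best with their own number. The numbers serve here as names, and these values cannot decide whether libraries with the same number share an origin.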
